A study of Arabidopsis thaliana with 12 samples.

Results

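The genes described here are 8 late embryogenesis abundant (LEA) genes of Arabidopsis thaliana, each read by 1 probe set of Affymetrix ATH1 arrays, among 13350 genes that a probe set names alone and 22746 non-control probe sets in all. They are AT3G02480, LEA4-5 (AT5G06760), LEA18 (AT2G35300), AT3G15670, AT3G17520, AT5G44310, AT3G53040 and AT2G42560. Each was taken by name, as a probe set that the platform annotation pairs with that gene alone. The genes were selected on their signals in these arrays. The choice was taken to rest on seed-type transcripts being high in the receptor mutant given GA3 against the same mutant in mock. Their values in that mutant, and every contrast that uses its arrays, are therefore given as a description with no test. The contrast within the other mutant was tested, on the reading that it did not guide the choice.

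Seedlings 7 days old, grown in the light, came from 2 mutants. The ga-1 line (SALK_109115) is impaired in making the growth hormone gibberellin (GA). The gid1a-1 gid1b-1 gid1c-2 line, called gid1 here, carries mutations in each of the GID1 genes for the soluble GA receptors, and a wild type is not among the groups. Each mutant was mock-treated for 1 h or treated for 1 h with 100 µM of the gibberellin GA3, which gives 4 groups of 3 arrays that the submitters describe as biologically independent, and this number limits the precision of every value. RNA came from whole seedlings, so more cells of a type and more RNA per cell cannot be told apart. The description of each mock sample also mentions GA3, against its title and source name, and the latter were followed. In ga-1 the transcript of XERICO, which DELLA repressors of GA signalling activate, stood between 1878.9 and 1987 in mock arrays and between 341.9 and 528 in GA3 arrays, which separates the ga-1 arrays as labelled. No such separation was seen in gid1, where XERICO stood between 1933.3 and 2241.9 in mock and between 1716 and 2014.8 with GA3. The receptor gene GID1A read 42.4 to 70.9 over the gid1 arrays of both treatments against 639.5 to 710.1 in ga-1 mock. RCA, the Rubisco activase gene of green tissue, was between 20340.6 and 28560.3 on every array, and it was the single leaf marker of 15 listed that had a named probe set. The 1 of 10 root markers with a named probe set, AT3G54580, lay between 20.0 and 102.5.

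LEA proteins are small to mid-sized, very hydrophilic and largely unfolded in water. They accumulate late in seed maturation, when the embryo dries, and again in vegetative tissue under drought, salt or abscisic acid (ABA), and they are known for shielding enzymes and membranes from drying. Their transcripts decline as a seed germinates, a step that GA promotes and ABA delays. Of the 8 genes, LEA4-5 and LEA18 encode proteins of the LEA_1 class, and the other 6 encode proteins of the LEA_4 class, which is built of repeats of a short charged motif.

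Values are MAS5 signals, linear intensities scaled by the authors to a common level on each array. Array medians over the non-control probe sets lay between 169.5 and 188.5, and the 30th percentile of an array lay between 48.0 and 70.6. A signal under its array's 30th percentile is called near background here, since no detection calls were used. Of the 96 member values (8 genes on 12 arrays), 34 were above it. AT3G02480 was above it on 12 arrays, LEA4-5 on 6, LEA18 and AT3G15670 on 4 each, AT3G53040 and AT2G42560 on 3 each, AT3G17520 on 2 and AT5G44310 on 0. LEA18, AT3G17520, AT5G44310, AT3G53040 and AT2G42560 never reached the median of an array.

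AT3G02480, a gene of the LEA_4 class, was the 1 member that stayed above the 30th percentile on every array. It exceeded the array median on 10 of the 12 arrays, and on 1 of the 3 gid1 mock arrays. In ga-1 mock its signal was 187.5, 1714.4 and 537.6 for replicates 1, 2 and 3, and in ga-1 with GA3 it was 257.5, 230.3 and 214.5. In gid1 mock it was 155.6, 89.0 and 280.7, and in gid1 with GA3 it was 1059.1, 3039.7 and 1810.1. The gid1 arrays with GA3 all lay above the gid1 mock arrays, while replicate 2 of ga-1 mock lay within the range of the gid1 arrays with GA3. Group means were 813 ± 800 (SD, n = 3) in ga-1 mock, 234 ± 21.8 in ga-1 with GA3, 175 ± 97.3 in mock gid1 and 1970 ± 1000 in gid1 with GA3. The mean log2 signal in gid1 was 3.52 higher with GA3, or 11.4-fold.

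LEA4-5, whose protein guards against water deficit, read 27.4, 96.3 and 85.5 in ga-1 mock and 48.1, 15.4 and 32.6 in ga-1 with GA3. In gid1 it read 54.8, 35.4 and 69.4 in mock and 80.0, 197.0 and 199.4 with GA3. Replicates 2 and 3 of ga-1 mock lay above the ga-1 arrays with GA3, replicate 1 did not, and the gid1 groups did not overlap. The gid1 log2 difference was 1.51.

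LEA18, of the same LEA_1 class, was near background on 8 arrays and never reached the median of an array. It read 1.6, 128.5 and 26.9 in ga-1 mock, 5.8, 9.8 and 4.0 in ga-1 with GA3, 5.2, 4.1 and 4.5 in gid1 without GA3 and 80.1, 175.2 and 156.1 in gid1 given GA3. The 3 gid1 arrays with GA3 and replicate 2 of ga-1 mock were the 4 arrays above background, and the gid1 groups did not overlap. The log2 difference in gid1, 4.83, rests on mock signals that are near background. With every signal under 70.6 set to that value the difference was 1.84-fold, and on the same footing it was 2.07-fold for LEA4-5.

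AT3G15670, of the LEA_4 class, followed the same arrays. Its signal was 1.3, 188.7 and 49.6 in ga-1 mock and 3.9, 9.9 and 2.3 in ga-1 with GA3. It was 2.7, 6.0 and 37.4 in mock gid1 and 121.9, 217.0 and 153.9 in gid1 with GA3. The gid1 groups did not overlap, and replicate 2 of ga-1 mock lay within the range of the gid1 arrays with GA3. The log2 difference in gid1 was 4.24, and with signals set to 70.6 or more the difference was 2.26-fold.

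AT3G53040, also LEA_4, was the 1 member whose gid1 arrays with GA3 stood above all of the other 9 arrays, a pattern that 0.475% of all probe sets showed. It read 68.6, 65.7 and 84.1 there, 37.5, 33.6 and 7.1 in gid1 mock, 7.5, 52.8 and 27.4 in ga-1 mock and 18.1, 21.7 and 6.8 in ga-1 with GA3. Its gid1 arrays with GA3 lay between the 33.2 and 36.2 percentile of their arrays, and the log2 difference in gid1 was 1.80. The gid1 mock signals are near background, and with signals set to 70.6 or more the difference was 1.06-fold.

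AT3G17520, AT5G44310 and AT2G42560, of the LEA_4 class, were mostly near background. AT3G17520 read 5.2, 102.3 and 80.2 in gid1 with GA3 against 4.8, 27.1 and 0.8 in gid1 mock, and replicate 1 with GA3 lay among the mock arrays. In ga-1 it read 5.6, 47.3 and 3.5 in mock and 2.3, 8.7 and 1.2 with GA3. AT2G42560 read 6.5, 54.7 and 63.8 in gid1 with GA3 and 6.3, 15.8 and 59.9 in gid1 mock, so that these groups overlapped, and it stayed at 11.1 or less on each ga-1 array. AT5G44310 read 16.3, 13.0 and 35.6 in gid1 with GA3, 8.5, 1.0 and 12.2 in gid1 mock, 7.6, 5.0 and 1.0 in ga-1 mock and 17.2, 6.6 and 18.0 in ga-1 with GA3. Its gid1 groups did not overlap, but each of these signals is near background, so no level can be read from it.

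**Figure D1:**
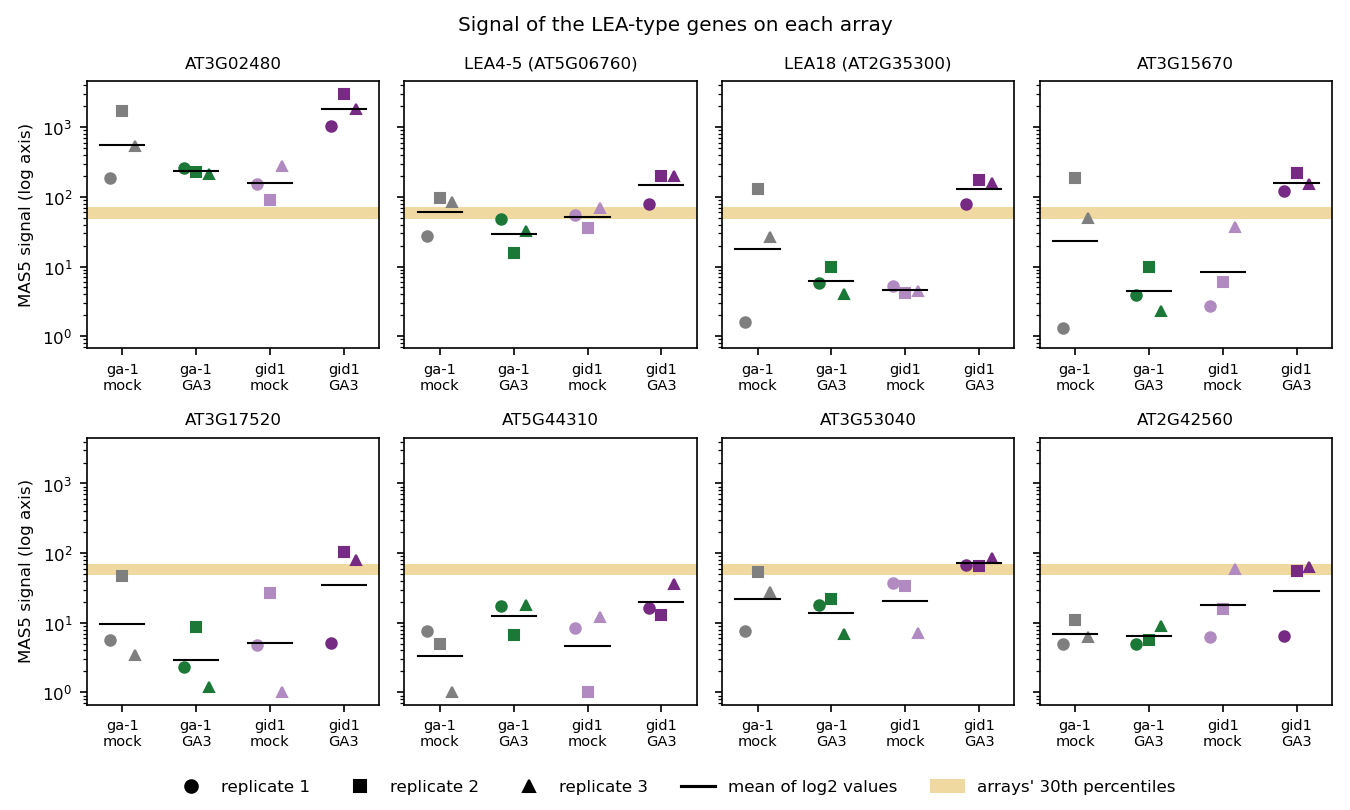
MAS5 signal (log axis, signals under 1 drawn at 1) of each of the 8 LEA-type genes on the 12 arrays, by group; symbols are replicates, black lines are means of log2 values, and the band spans the 30th percentiles of the arrays (48.0 to 70.6). AT3G02480 lies above the band on every array, and the squares of ga-1 mock (replicate 2) stand high for most genes.

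In ga-1, GA3 against mock asked whether these genes respond to the hormone within 1 h in a GA-deficient seedling. None of the 8 was called by limma over all 22746 probe sets at an adjusted p under 0.05, where 0.479% of all probe sets were called, and 1 of the 8 had an unadjusted p under 0.05, where 6.86% of all did. AT3G02480 was that gene, with a log2 difference of -1.25 ± 0.57 (SE) and an adjusted p = 0.70. The differences were -1.07 ± 0.57 for LEA4-5 (adjusted p = 0.77), -2.37 ± 1.38 for AT3G15670 (adjusted p = 0.81), -1.53 ± 1.14 for LEA18 (adjusted p = 0.88) and -1.76 ± 1.41 for AT3G17520 (adjusted p = 0.90). Those of AT3G53040, at -0.67 ± 0.81, and AT2G42560, at -0.14 ± 1.00, were smaller than their errors. AT5G44310 had the opposite sign, 1.92 ± 1.09 (adjusted p = 0.80), from signals near background. The median over the 8 genes was -1.16, beside 0.02 over all probe sets, and it was -0.12 with signals set to 70.6 or more, where 4 of the 8 genes had both groups at that value. The ga-1 groups overlapped for each of the 8 genes, while 6.57% of all probe sets lay apart with GA3 higher and 6.05% with GA3 lower.

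Besides low signals, the median depended on single ga-1 mock arrays, which moved it in both directions. Replicate 2 of ga-1 mock was the highest of the 6 ga-1 arrays for 7 of the 8 genes, while it was the highest for 12.8% of all probe sets. Without it the median was -0.27, and the differences became -0.44 for AT3G02480, -0.74 for LEA4-5, -0.10 for LEA18, -0.85 for AT3G15670 and -0.62 for AT3G17520. Replicate 3 of ga-1 mock also lay above the 3 ga-1 arrays with GA3 for 5 genes, together with replicate 2, namely AT3G02480, LEA4-5, LEA18, AT3G15670 and AT3G53040 (9.71% of all probe sets showed this). Replicate 1 of ga-1 mock was low, and without it the median was -1.85. In that setting 4 of the 8 genes had an unadjusted limma p under 0.05, as did 1224 of all 22746 probe sets. None of the 8 was called, and the smallest adjusted p among them was 0.13. The count of all probe sets called, 109, fell to 53, 46 and 49 when mock replicate 1, 2 or 3 of ga-1 was left out, and to 72 when GA3 replicate 1 of ga-1 was.

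**Figure D2:**
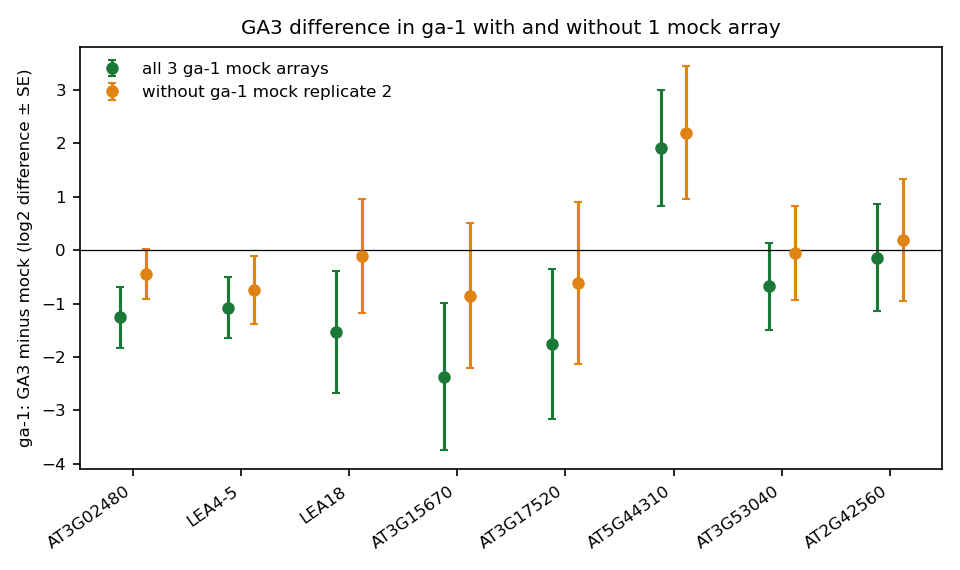
Log2 difference of GA3 minus mock in ga-1 for each LEA-type gene, with the limma standard error as bars, from all arrays (green) and without replicate 2 of ga-1 mock (orange). Without that array AT3G02480 moves from -1.25 to -0.44 and LEA18 from -1.53 to -0.10, nearer 0.

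In gid1, where the genes were taken to have been picked, all 8 differences of GA3 minus mock were above 0. They ran from 0.64 for AT2G42560 to 4.83 for LEA18, with a median of 2.42 beside 0.01 over all probe sets. A log2 difference of at least 1 was seen for 7 genes (5.09% of all probe sets), and 6 genes had gid1 arrays with GA3 that all lay above the gid1 mock arrays (4.81% of all). These counts describe the choice of genes and nothing is read from them. Their size depended on how low signals were handled: the median was 1.05 on the log2(value + 32) scale, and 0.56 with signals set to 70.6 or more. Leaving out each gid1 array in turn gave medians between 1.94 and 3.05. Among the gid1 arrays with GA3, replicate 1 was the lowest for 6 of the 8 genes, against 39.3% of all probe sets.

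Between the mutants the mock groups overlapped for each of the 8 genes, where 4.84% of all probe sets lay apart with gid1 higher and 5.89% with gid1 lower. The median log2 difference of gid1 minus ga-1 in mock was -0.60, and it was 0.14 without replicate 2 of ga-1 mock, so its sign rested on that array. AT3G02480 kept the sign, with -1.82 and, without that array, -1.01. After GA3 the gid1 arrays were higher by a median log2 difference of 2.66, which was 1.37 on the log2(value + 32) scale and 0.56 with signals set to 70.6 or more, and AT3G02480, LEA4-5, LEA18, AT3G15670 and AT3G53040 did not overlap between the mutants (5.85% of all probe sets lay apart in this direction). This contrast shares the gid1 arrays with GA3 with the one above and was not tested.

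Across the 12 arrays the members followed one another to different degrees. The Pearson r of a member with the mean standardised log2 profile of the other 7 was 0.92 for LEA18, 0.90 for AT3G02480, 0.86 for AT3G15670 and 0.85 for LEA4-5. It was 0.70 for AT3G53040, 0.65 for AT3G17520, 0.56 for AT2G42560 and 0.20 for AT5G44310. Spearman's rho over the same 12 arrays was 0.87, 0.82, 0.90 and 0.87 for the first group of genes, and 0.69, 0.37, 0.49 and 0.04 for the second. These values describe genes chosen for a shared pattern, rest in part on the few high arrays and carry no p. The genes with the lower values are those that were near background on 9 or more arrays.

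The LEA family has other members that are active in vegetative tissue. Of 51 LEA family genes listed, 35 had a named probe set, of which 27 are not among the 8. None of the 27 was called in ga-1 (0.479% of all probe sets were). An unadjusted limma p under 0.05 was seen for 0 of the 27 (6.86% of all). With so few genes these counts are near the shares of all probe sets, and nothing is read from them. In gid1 the 27 had a median log2 difference of 0.32. For 3 of them the gid1 arrays with GA3 all lay above those of gid1 mock, namely AT4G21020, the dehydrin gene listed as LEA (AT2G21490) and AT2G23110, and for 2 they all lay below, namely AT2G23120 and AT2G33690 (4.81% and 4.45% of all probe sets did so); these were named after their values were seen. AT4G21020, another gene of the LEA_4 class, read 3.4, 1.0 and 0.7 in mock gid1 and 27.2, 62.3 and 38.2 in gid1 with GA3, a log2 difference of 4.74 from signals near background.

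These 27 genes were also divided by their mean level. The 8 whose mean log2 signal lay above that of the median probe set had gid1 differences between -0.33 and 0.22, with a median of 0.01, and ga-1 differences between -0.26 and 0.20. Among them are the dehydrin genes COR47 (gid1 difference -0.01), LTI30 (0.05) and AT1G54410 (0.10), the drought-induced gene DI21 (0.22) and COR15B (-0.33), a cold-regulated gene for a chloroplast LEA protein, all named after their values were seen. COR47, for example, stood between 2985.7 and 4229.5 in mock gid1 and between 3284.6 and 3955.1 in gid1 with GA3, so that the groups overlapped. The 19 dimmer ones ranged from -2.19 to 4.74 in gid1, with a median of 0.72. With signals set to 70.6 or more the median was 0, so it rests on low signals. On that footing the difference was 0.98 for M17, 0.53 for AT2G23110, 0.45 for AT4G38410 and 0.37 for COR15A, and none of the 19 lay below 0. Of the genes just named, AT2G23110 alone had gid1 groups that did not overlap. They too were named after their values were seen. The list of ABA pathway and ABA-raised genes could not be read, since 0 of its 23 genes had a named probe set.

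**Figure D3:**
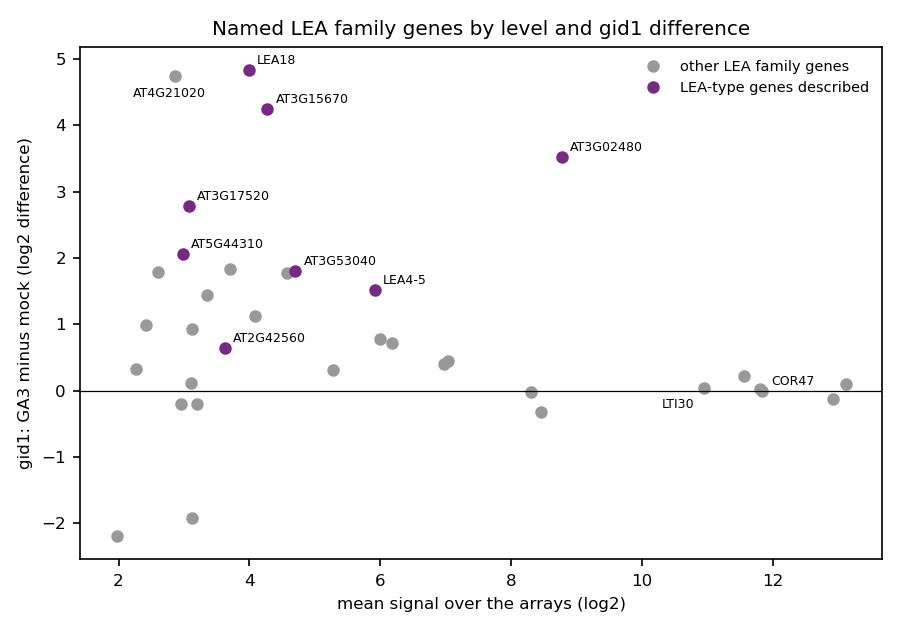
Log2 difference of GA3 minus mock in gid1 against the mean log2 signal over the 12 arrays, for the 35 LEA family genes with a named probe set; the 8 described are purple. The bright genes, COR47 and LTI30 among them, lie within -0.33 and 0.22, AT3G02480 is the 1 bright gene far from 0, and the dim genes scatter from -2.19 to 4.83.

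Seed genes outside the LEA family moved on some of the same arrays. Their lists were chosen with earlier results of these data known, so their gid1 values are a description only. ICL encodes isocitrate lyase, an enzyme that takes part in the conversion of stored oil into sugar in the germinating seedling. It was the 1 of 8 reserve mobilization genes with a named probe set. ICL read 16, 508.1 and 155.9 in ga-1 mock and 35.6, 7.6 and 69.5 in ga-1 with GA3. In gid1 it read 63.7, 17.2 and 84.3 in mock and 253.9, 644.5 and 752.0 with GA3. Its high arrays were thus the gid1 arrays with GA3 and replicate 2 of ga-1 mock, as for AT3G02480.

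Of 19 seed storage and oil body genes, 7 had a named probe set, and their summed signal ran from 311.3 to 787.6 in ga-1 mock, 282.0 to 1046.3 in ga-1 with GA3, 224.3 to 342.6 in mock gid1 and 644.8 to 936.1 in gid1 with GA3. In gid1, 3 of the 7 had arrays with GA3 that all lay above mock (4.81% of all probe sets did so), with log2 differences of 3.98 for AT2G28490, a cupin-type gene, 2.72 for PAP85, a vicilin-type storage protein gene, and 1.90 for AT3G01570, an oleosin-type gene, while AT1G03890, near background on every array, had -1.31. The gid1 mock signals of these genes were near background too, and with signals set to 70.6 or more the log2 differences were 0.83 for AT2G28490, 1.52 for PAP85 and 1.24 for AT3G01570. The count of 3 comes from the contrast that the choice of genes was taken to rest on, so nothing is read from it. None of the 7 was listed at 0 on any array. The highest sum of the 12 arrays, 1046.3, was that of replicate 3 of ga-1 with GA3, with 339.7 for OLEO3 and 246.3 for AT3G01570, whereas its 8 LEA-type genes summed to 288.4, the range over ga-1 with GA3 being 288.4 to 357.9. The summed signal of the LEA-type genes ran from 243.4 to 2244.1 in ga-1 mock, 212.0 to 472.0 in mock gid1 and 1437.7 to 3864.6 in gid1 with GA3. AT3G02480 alone gave 1714.4 of the 2244.1, 3039.7 of the 3864.6 and 89.0 of the 212.0. The LEA sums therefore largely follow that 1 gene. The part of seed tissue in the LEA values was not tested.

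**Figure D4:**
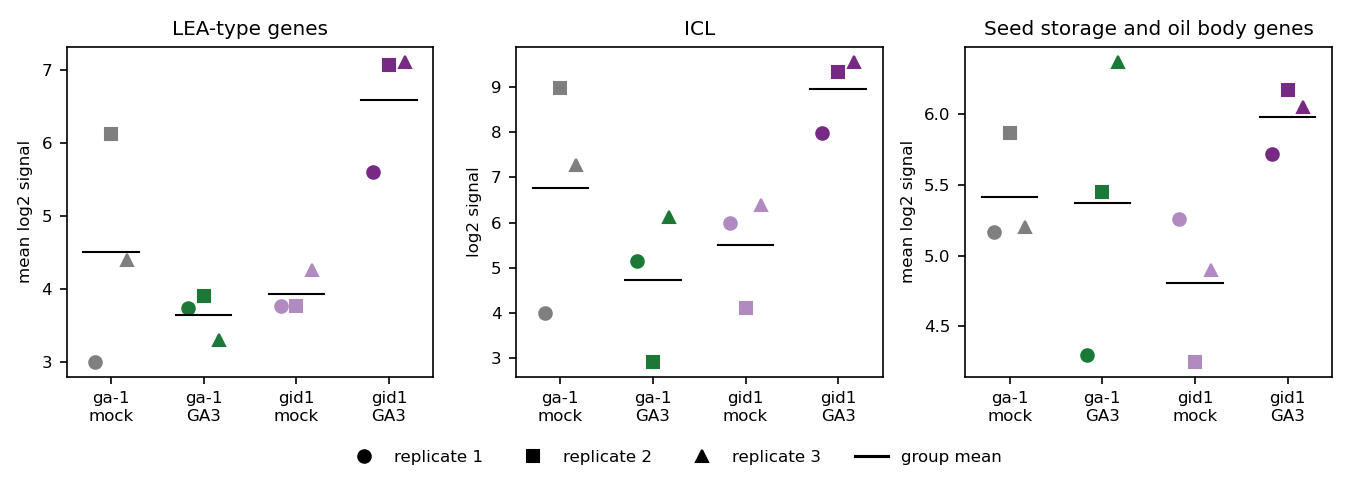
Mean log2 signal of the 8 LEA-type genes, log2 signal of ICL, and mean log2 signal of the 7 seed storage and oil body genes on each array, by group, with replicates as symbols and group means as lines. The gid1 arrays with GA3 lie between 5.60 and 7.11 for the LEA-type genes and replicate 2 of ga-1 mock at 6.12, while replicate 3 of ga-1 with GA3 is high in the right panel (6.37) and low in the left one (3.29).

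Among 6857 other named probe sets that exceeded the median on at least 1 array, ICL had the profile most like the mean of the 8, with Pearson r = 0.89 and Spearman's rho = 0.90 over the 12 arrays. AT2G15010 was next with r = 0.87 and rho = 0.78; it read 4.0, 444.1 and 138.1 in ga-1 mock, 3.1, 11.7 and 14.3 in ga-1 with GA3, 6.4, 37.5 and 36.0 in mock gid1 and 171.4, 416.3 and 368.8 in gid1 with GA3. Its 3 gid1 arrays with GA3 and replicate 2 of ga-1 mock were its 4 highest arrays. AT2G33435 (0.86), AT1G68250 (0.85), AT4G35980, AT2G34340 (0.82 each), AT1G10640, AT5G19130, AT3G11490 (0.81 each) and AT5G09620 (0.80) followed. Several of these moved little, such as AT5G09620, with a gid1 log2 difference of 0.23. Without replicates 2 and 3 of gid1 with GA3, the arrays farthest from the median of the mean profile, r was 0.83 for ICL and 0.84 for AT2G15010, and for the rest it ran from 0.55 for AT5G09620 to 0.80 for AT5G19130. The r values serve as a measure of likeness and carry no p, as the arrays fall into high and low ones. ICL and AT2G15010 exceeded the median only on the 3 gid1 arrays with GA3 and replicate 2 of ga-1 mock. They thus entered the ranking through the arrays with the highest mean log2 signal of the 8 genes, and their rank is no support for the pattern.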

How the data were processed

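Transcripts were measured on 12 one-colour arrays. Per the labels' protocols, about 80 mg of seedlings gave the RNA (RNeasy kit), of which about 1 µg was amplified with biotin labelling. The deposited values are linear intensities; the submitters' processing notes name MAS5 without a version; the mean without the lowest and highest 2% was 500.0 on each array, so the authors had scaled the arrays alike. The authors' MAS5 scaling was kept. Signals were floored at 1 and taken to log2, and the 64 control probe sets were left out.

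limma 3.58.1 (R 4.3.3) modelled 4 group means over all 12 arrays with an intensity trend and Benjamini-Hochberg adjustment over 22746 probe sets. No low-value filter was used, because 6 of the 8 genes would fail one at the 30th percentile. The fit was tested on simulated data. Gene names come from the platform annotation, updated from a gene table of assembly TAIR10.1; 13513 probe sets name 1 gene, 503 name several and 8794 have no entry.

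The members and gene lists were chosen with earlier results of these data known. The rule named all 8 members, up to 4 genes of each list by size of the gid1 difference and the 10 genes most alike in profile; OLEO3 and the LEA family genes outside the 8, except AT4G21020, were named outside it, after their values were seen. Alternatives were quantile scaling, median centring, log2(value + 32), floors of 16 and (added after seeing the data) 70.6, a low-value filter, no trend, ga-1 alone, weighted arrays, a block for the replicate number, an adjusted p under 0.01 and each array left out. Protein and promoter sequences were not analysed here.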

Additional observations from a re-analysis of the deposited data

How the results depend on the processing

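None of the LEA-type genes was called in ga-1 under any of the alternatives run (those that leave out an array included), and the smallest adjusted p among them ranged from 0.13 (without ga-1 mock replicate 1) to 0.92 (without ga-1 mock replicate 2). The low-value filter left 2 of the 8 to be tested. The count of all probe sets called in ga-1, 109, was 58 with a floor of 16, 50 with a floor of 70.6, 20 without the intensity trend and 42 at an adjusted p under 0.01, and leaving out 1 array at a time gave 46 to 116. With the replicate number as a block it was 97 and the count of LEA-type genes called was 0. Same-numbered ga-1 mock and GA3 arrays deviated from their group means with correlations from -0.06 to -0.01, so no pairing by number was seen between these groups. The gid1 arrays were not checked in this way. The ga-1 median of the LEA-type genes, -1.16, was -0.12 with the floor of 70.6, and -1.85 to -0.27 with 1 array left out. The gid1 median, 2.42, was 1.05 on the log2(value + 32) scale, 0.56 with the floor of 70.6, and 1.94 to 3.05 with 1 array left out. The direction of AT2G42560 in ga-1 turned without ga-1 mock replicate 2 (0.19) and without replicate 1 of ga-1 with GA3 (0.03), from -0.14, and with 1 array left out it ran from -0.40 to 0.19. Genes with both ga-1 groups at a floor (16 or 70.6) have no direction there and entered the medians as 0. Where a value moved, the cause was not tested, except that floors and the added 32 shrink differences between low signals by construction. Signal over background limits every gene of the 8 but AT3G02480.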
